A study of Mus musculus with 47 samples.

Results

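Genes of fatty acid oxidation and targets of the peroxisome proliferator-activated receptors (PPARs) were followed in the mouse small intestine, in its crypts and villi. The set was a list of 39 gene symbols for enzymes, carriers, thioesterases, lipid droplet proteins and regulators of this pathway. A gene entered when a probe set of the array carried its symbol alone, which left 37 of the 39, out of 8224 genes kept over the whole array. Acsl1 and Ucp2 were not analysed here.

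All mice were C57BL/6. In the diet arm, wild-type mice labelled as 1 year old received Ain76A, a purified control diet, or the NWD1 or NWD2 diet from weaning for 1 year. The labels do not give the composition of the diets. In the genetic arm, mice aged 3 months on Ain76A were wild type, Apc1638N/+ (1 copy of the Apc tumor suppressor gene carries a targeted change) or p21-/- (no functional Cdkn1a). Both are germline alleles, so neither is limited to the epithelium. Each of the 12 groups had 4 arrays, except NWD2 villi with 3, and the labels do not say that the arrays of a group came from separate mice, so p-values measure the spread between these arrays. In whole crypts and villi, fewer cells of a type and less RNA per cell cannot be told apart.

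Fatty acids are activated to acyl-CoA, carried into mitochondria by the carnitine shuttle and shortened there in repeated cycles of dehydrogenation, hydration, a second dehydrogenation and thiolysis. Peroxisomes run a parallel cycle for very long and branched chains, and acyl-CoA thioesterases release free fatty acid again. PPAR-alpha and PPAR-delta are nuclear receptors that bind fatty acids and switch on many of these genes, and in the intestine their target genes are known to answer to dietary fat.

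The values are normalized log2 levels, 1 per gene and array, and folds are log2 differences ± SE from limma. A gene was called at a Benjamini-Hochberg adjusted p under 0.05 over all genes tested. Measured probe sets numbered 14758 to 23296 per array. A Cdkn1a probe set had no value on any of the 8 p21-/- arrays and a value on all the rest, while the second probe set was measured on all 47. That second probe set was at 11.24 to 12.17 in p21-/- crypts and at 11.43 to 12.96 in wild-type crypts. In villi it was at 12.69 to 13.39 in p21-/- and at 12.40 to 12.98 in wild type. With overlap in both tissues, its level does not check the p21-/- label. In crypts an Apc probe set was at 10.24 to 10.96 in Apc1638N/+ and at 10.04 to 10.91 in wild type, so it does not check that label. A crypt-villus score was computed per array as the mean of crypt-higher minus the mean of villus-higher genes, chosen in the controls of the other arm and without the members. The genes thus differ between the arms, with 183 crypt-higher and 208 villus-higher for the genetic arm and 76 and 102 for the diet arm. Scores are therefore compared only within an arm. In the genetic arm the score was -0.01 to 2.11 on crypt arrays and -2.93 to -1.71 on villus arrays. In the diet arm it was 0.94 to 2.87 and -2.60 to 0.23. Wild-type crypt arrays 2 and 4 had the lowest crypt scores of their arm, at -0.01 and 0.18, and villus NWD2 array 1 the highest villus score of its arm, at 0.23. Between villi and crypts of Ain76A mice, 20 of 20 enterocyte markers tested were higher in villi and 16 of 16 proliferating crypt markers higher in crypts. Mean marker levels per array use only the listed markers measured on every array. These were 20 of 22 for enterocytes, 8 of 20 for proliferating crypt, 2 of 10 for Paneth cells and 3 of 10 for lymphocytes.

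Promoters of 31 of the 37 members, 250 bases before to 50 after the start site, were in the RefSeq table (build GRCm38.p6). A perfect direct repeat of AGGTCA with 1 base between, the consensus of the PPAR response element, was in 0 of these 31 on either strand. It was in 0.0481% of all 27025 genes (32851 promoters). With AGGNCA for each hexamer it was in 0 of 31 and in 0.451% of all genes. At shares this small, 0 of 31 does not set the members apart from other genes. Less perfect elements and sites outside this window were not searched. The single hexamer AGGTCA, searched after these results were known, stood in the promoters of 6 of 31 members (Acot12, Creb3l3, Acadm, Acadvl, Cpt1a and Plin2). It stood in those of 18.1% of all genes, so the members were near the share of all genes. The promoters below belong to the 3 of these genes that rose in NWD2 crypts, and capitals mark the hexamer or its reverse complement. They are Creb3l3 (chr10:81092542-81092841, minus strand), Acadvl (chr11:70015379-70015678, minus strand) and Acot12 (chr13:91741271-91741570, plus strand). The match begins 202 bases before the start site used in Creb3l3, 87 in Acadvl and 110 in Acot12, where it is on the opposite strand. The annotated genes of Creb3l3 and Acot12 begin upstream of these start sites, at 81098872 and 91741326, so both matches lie within the gene. A match of letters is a description and not a binding site.
Creb3l3: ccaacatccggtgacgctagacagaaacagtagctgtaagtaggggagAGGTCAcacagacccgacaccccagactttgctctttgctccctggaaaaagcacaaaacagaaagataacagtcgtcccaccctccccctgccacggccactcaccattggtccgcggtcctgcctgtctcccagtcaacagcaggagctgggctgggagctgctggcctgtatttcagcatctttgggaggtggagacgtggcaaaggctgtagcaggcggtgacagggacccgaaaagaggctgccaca
Acadvl: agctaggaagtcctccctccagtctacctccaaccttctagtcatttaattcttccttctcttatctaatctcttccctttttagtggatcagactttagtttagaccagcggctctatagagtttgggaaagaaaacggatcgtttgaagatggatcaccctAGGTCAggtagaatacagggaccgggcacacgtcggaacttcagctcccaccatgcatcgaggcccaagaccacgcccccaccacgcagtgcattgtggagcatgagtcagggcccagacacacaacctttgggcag
Acot12: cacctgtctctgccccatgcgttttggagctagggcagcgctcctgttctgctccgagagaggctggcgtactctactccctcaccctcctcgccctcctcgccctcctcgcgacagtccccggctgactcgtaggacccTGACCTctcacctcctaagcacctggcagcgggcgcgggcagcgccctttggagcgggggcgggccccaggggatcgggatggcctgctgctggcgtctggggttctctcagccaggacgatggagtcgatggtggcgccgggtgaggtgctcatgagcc

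The diets were compared first in crypts. In crypts of NWD2 mice, 21 members rose over Ain76A, among them enzymes of mitochondrial and peroxisomal oxidation, carriers of the carnitine shuttle and acyl-CoA thioesterases. Of 36 members tested, 21 rose and 0 fell, while 6.42% of the 7723 genes tested rose and 4.44% fell. The median fold was 0.73 over the members and -0.07 over all genes tested, and 35 of 36 members had a fold above 0. The largest folds were those of Vnn1, Acot1, Acaa1b, Creb3l3 and Acot12. With the deposited scaling 24 members rose and 0 fell, the medians were 0.95 and 0.05, and the genes called over the whole array moved from 496 higher and 343 lower to 662 and 138.

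**Figure D1:**
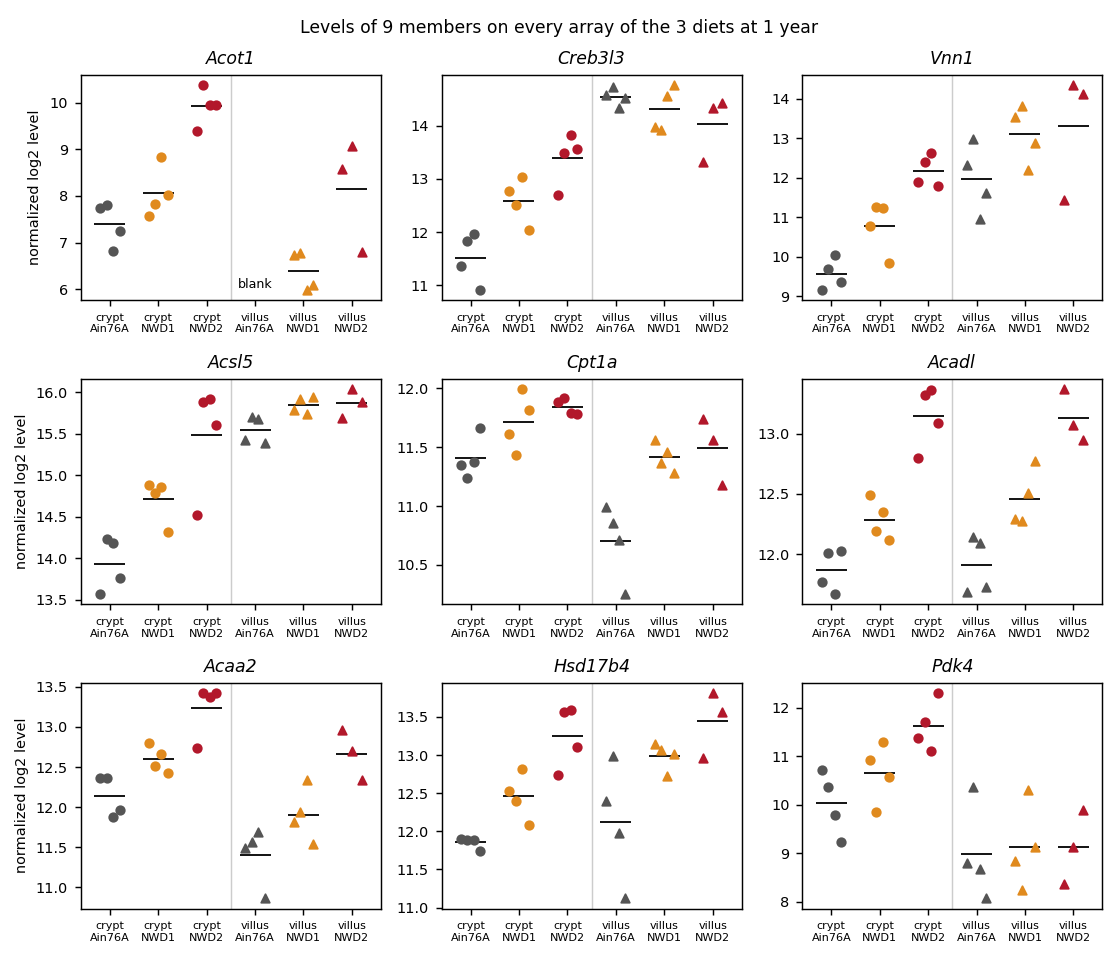
Normalized log2 levels of 9 members (vertical axes) on every array of the 6 diet groups. Circles are crypt arrays, triangles villus arrays, horizontal lines group means, and Acot1 was blank on the 4 Ain76A villus arrays. The NWD2 crypt arrays lie above all Ain76A crypt arrays in each of the 9 panels, though for Cpt1a the test did not pass. These 9 members were picked for display. Acot12, Decr1, Acaa1b, Plin2, Angptl4, Ppara, Ppard and Ppargc1a, not shown, overlapped, and the share of all genes without overlap was not counted.

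Among the thioesterases, Acot1, which cleaves long-chain acyl-CoA in the cytosol, was at 7.74, 7.80, 6.82 and 7.25 on the Ain76A crypt arrays and at 9.40, 10.38, 9.95 and 9.95 on the NWD2 crypt arrays. Acot2, a mitochondrial thioesterase, was at 9.52, 9.12 and 9.03, with 1 blank, and at 10.25, 10.24 and 10.68, with 1 blank, in NWD2. Acot12, a cytosolic acetyl-CoA hydrolase, was at 7.37, 8.03, 9.02 and 6.99 and in NWD2 at 8.83, 9.82, 10.46 and 9.75. The groups did not overlap for Acot1 and Acot2, and for Acot12 NWD2 array 1 lay below Ain76A array 3. The folds were 2.52 ± 0.37 (adjusted p = 0.00037) for Acot1, 1.17 ± 0.29 (adjusted p = 0.0163) for Acot2 and 1.86 ± 0.44 (adjusted p = 0.00613) for Acot12. Acot1 had a value on 29 arrays, with the lowest mean of the members (7.75). It may have passed the filter on low values only through the NWD2 crypt arrays, where it was high, which was not checked. Acot1 and Acot2 are near-identical paralogs, and cross-hybridization of their probe sets was not tested.

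Activation and the carnitine shuttle followed. Acsl5, a long-chain acyl-CoA synthetase of the enterocyte, was at 13.57, 14.23, 14.18 and 13.76 in Ain76A crypts and at 14.52, 15.88, 15.92 and 15.61 in NWD2 crypts. Cpt1a, the rate-limiting carnitine palmitoyltransferase of the outer mitochondrial membrane, was at 11.35, 11.24, 11.37 and 11.66 and at 11.89, 11.92, 11.79 and 11.78. All NWD2 arrays lay above all Ain76A arrays for both genes, and Acsl5 rose by 1.55 ± 0.31 (adjusted p = 0.00142) while the fold of Cpt1a, 0.44 ± 0.25 (adjusted p = 0.254), did not pass. Slc25a20, the carnitine-acylcarnitine carrier of the inner membrane, was at 11.08, 11.43, 10.64 and 10.84 and at 12.35, 12.58, 12.54 and 12.46 in NWD2. Cpt2, which remakes acyl-CoA inside the mitochondrion, was at 11.03, 11.07, 11.13 and 11.03 and at 11.72, 12.28, 12.01 and 12.04. Neither gene's groups overlapped, with folds of 1.48 ± 0.41 (adjusted p = 0.016) and 0.95 ± 0.25 (adjusted p = 0.0128). Crat, the carnitine acetyltransferase, was blank on all Ain76A crypt arrays by its representing probe set and was not tested. Another probe set of Crat, measured on all arrays of both groups, had means higher by 1.56 in NWD2.

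The 4 acyl-CoA dehydrogenases open each mitochondrial cycle for chains of decreasing length. Acadvl, for very long chains, was at 12.17, 12.17, 11.93 and 11.93 in Ain76A crypts and at 12.51, 12.80, 12.86 and 12.79 in NWD2 crypts. Acadl, for long chains, was at 11.77, 12.01, 11.67 and 12.02 and at 12.80, 13.32, 13.37 and 13.09. Both rose without overlap, by 0.69 ± 0.15 (adjusted p = 0.00375) and 1.28 ± 0.24 (adjusted p = 0.000821). Medium-chain Acadm (0.43, adjusted p = 0.144) and short-chain Acads (0.47, adjusted p = 0.107) did not pass, although their NWD2 arrays also lay above all Ain76A arrays. Whether the folds of the long-chain and short-chain enzymes differ from each other was not tested.

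The later steps of the mitochondrial cycle moved as follows. Hadh, the short-chain hydroxyacyl-CoA dehydrogenase, was at 15.04, 15.05, 14.96 and 14.88 and in NWD2 at 15.23, 15.96, 15.91 and 15.70. Acaa2, the mitochondrial thiolase, was at 12.36, 12.36, 11.88 and 11.96 and at 12.74, 13.42, 13.38 and 13.42. The groups did not overlap, and the folds were 0.72 ± 0.14 (adjusted p = 0.00111) for Hadh and 1.10 ± 0.29 (adjusted p = 0.0116) for Acaa2. The trifunctional protein subunits Hadha and Hadhb were at 12.18, 12.28, 12.29 and 12.33 and at 12.48, 12.50, 12.34 and 12.44 in Ain76A. In NWD2 Hadha was at 12.68, 12.92, 12.77 and 12.88 and Hadhb at 12.77, 13.41, 13.21 and 12.95. Both subunits were higher on every NWD2 array, and Hadhb passed narrowly at 0.65 ± 0.22 (adjusted p = 0.0478) while Hadha, at 0.55 ± 0.24 (adjusted p = 0.128), did not.

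Unsaturated fatty acids need auxiliary enzymes. Decr1, the mitochondrial dienoyl-CoA reductase, was at 11.88, 12.34, 11.83 and 11.74 in Ain76A crypts and at 12.26, 12.84, 12.95 and 12.80 in NWD2 crypts, with NWD2 array 1 below Ain76A array 2. Ech1, a dienoyl-CoA isomerase, was at 12.36, 12.48, 12.32 and 12.14 and at 12.76, 13.13, 13.14 and 13.13, without overlap. The folds were 0.76 ± 0.21 (adjusted p = 0.0135) and 0.71 ± 0.16 (adjusted p = 0.0031). The enoyl-CoA isomerases Eci2 and Eci1 had folds of 0.48 ± 0.16 (adjusted p = 0.0504) and 0.27 (adjusted p = 0.523) and were not called. Electrons from the dehydrogenases pass through the flavoprotein Etfa and Etfb to its oxidoreductase Etfdh, which was at 11.56, 11.89, 11.42 and 11.60 and in NWD2 at 12.24, 12.67, 12.44 and 12.40. Etfdh rose without overlap by 0.82 ± 0.23 (adjusted p = 0.0196), while Etfa (0.25, adjusted p = 0.499) and Etfb (0.19, adjusted p = 0.475) did not pass.

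In peroxisomes, Hsd17b4, the D-bifunctional enzyme, was at 11.90, 11.89, 11.89 and 11.74 in Ain76A crypts and at 12.74, 13.57, 13.59 and 13.11 in NWD2 crypts. Ehhadh, the L-bifunctional enzyme, was at 10.64, 11.08, 11.03 and 10.70 and at 11.08, 12.10, 12.34 and 11.77. Acaa1b, a peroxisomal thiolase, was at 10.18, 11.04, 10.50 and 9.18 and at 10.99, 12.81, 12.71 and 12.45. Hsd17b4 was separated completely, while for Ehhadh and Acaa1b NWD2 array 1 lay no higher than the highest Ain76A array. The folds were 1.40 ± 0.28 (adjusted p = 0.00144), 0.96 ± 0.32 (adjusted p = 0.0432) and 2.02 ± 0.42 (adjusted p = 0.00192) in that order. Pex11a, which drives peroxisome division, was at 10.58, 10.96, 11.07 and 10.63 and at 11.19, 11.52, 11.87 and 11.66, a rise of 0.75 ± 0.21 (adjusted p = 0.0166) without overlap. The second thiolase Acaa1a (0.32, adjusted p = 0.408) and the peroxisomal dienoyl-CoA reductase Decr2 (0.80, adjusted p = 0.0642) were not called, and as Acaa1a and Acaa1b are close paralogs their probe sets may share signal, which was not tested.

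Among other target genes, Vnn1, a pantetheinase that breaks down a precursor of coenzyme A, was at 9.16, 9.69, 10.03 and 9.37 in Ain76A crypts and at 11.88, 12.40, 12.62 and 11.80 in NWD2 crypts. Pdk4, the kinase that shuts off pyruvate oxidation, was at 10.71, 10.37, 9.79 and 9.23 and at 11.38, 11.69, 11.10 and 12.29. Vnn1 rose by 2.62 ± 0.47 (adjusted p = 0.000596) and Pdk4 by 1.59 ± 0.50 (adjusted p = 0.0343), each with no overlap. Plin2, which coats lipid droplets, was at 11.90, 11.73, 11.73 and 11.37 and at 11.72, 12.35, 12.33 and 12.49. Angptl4, a secreted inhibitor of lipoprotein lipase, was at 10.25, 10.31, 9.94 and 9.74 and at 10.08, 10.65, 10.28 and 11.03. The arrays of both diets overlapped for Plin2 (0.54, adjusted p = 0.105) and Angptl4 (0.45, adjusted p = 0.481), and neither passed.

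Of the regulators, only Creb3l3 was called. Creb3l3, a membrane-anchored transcription factor of liver and intestine that works with PPAR-alpha in liver, was at 11.37, 11.83, 11.97 and 10.91 in Ain76A crypts and at 12.70, 13.48, 13.81 and 13.57 in NWD2 crypts. The groups were separated, with a fold of 1.87 ± 0.34 (adjusted p = 0.000661). The receptor and coactivator genes were not called. Ppara was at 10.38, 11.07, 10.72 and 10.38 and at 10.38, 11.23, 11.29 and 10.91 (0.31, adjusted p = 0.677). Ppard was at 10.38, 10.31, 9.82 and 10.52 and at 9.96, 9.93, 10.15 and 9.89 (-0.28, adjusted p = 0.748), the only member with a fold under 0. The coactivator gene Ppargc1a was at 10.69, 11.62, 11.10 and 10.82 and at 10.56, 11.64, 11.83 and 11.16 (0.24, adjusted p = 0.817). For these 3 genes the arrays of both diets overlapped.

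**Figure D2:**
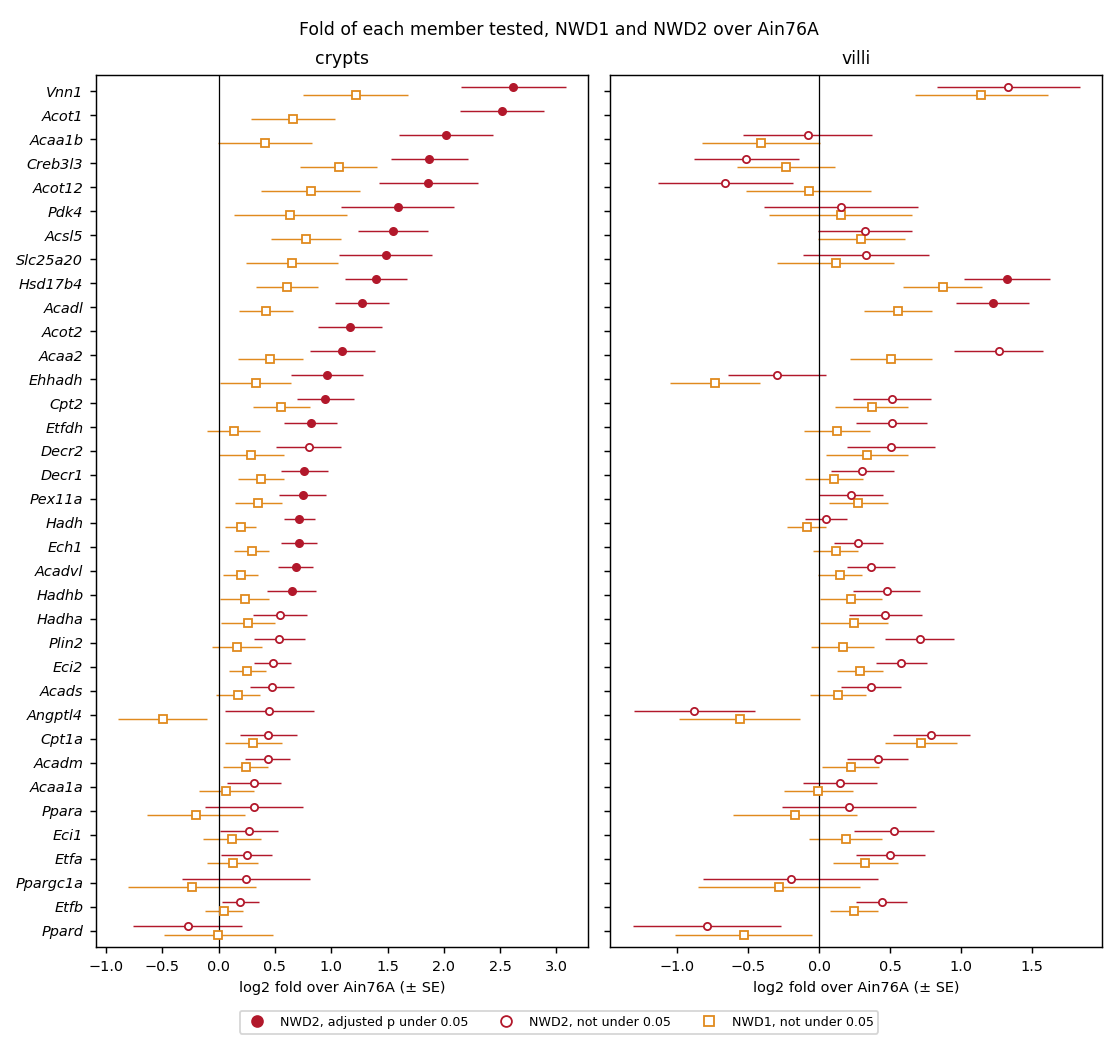
Log2 fold of each member over Ain76A (horizontal axes, bars ± SE) for NWD2 (circles) and NWD1 (squares) in crypts (left) and villi (right), with members in the order of their NWD2 crypt fold. Filled symbols passed an adjusted p under 0.05: 21 in NWD2 crypts, 2 in NWD2 villi and 0 for NWD1.

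The rises in NWD2 crypts rested unevenly on the arrays. Without NWD2 array 3 the count of members that rose was 10, and without NWD2 array 1, whose mean over the members was the lowest of its group, it was 24, with 176 and 668 of all genes called higher in those fits. The other leave-outs gave 14 to 19. The 10 members called whichever array was left out were Acot1, Vnn1, Creb3l3, Acaa1b, Acadl, Acadvl, Acsl5, Hadh, Hsd17b4 and Ech1. Ehhadh and Hadhb were lost in 7 of the 8 leave-outs and Pdk4 in 5.

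Differentiation markers moved with this comparison. In NWD2 crypts, 16 of 20 enterocyte markers rose and 0 fell (median 1.29), and 0 of 18 proliferating crypt markers rose and 7 fell (median -1.07). One marker each of 7 crypt base columnar, 7 Paneth and 8 goblet markers fell and 0 rose, 2 of 7 proximal small intestine markers rose, and of the markers of enteroendocrine cells (11), tuft cells (2), lymphocytes (7), myeloid cells (3), stroma and muscle (1), pancreas (1) and distal small intestine (2) 0 were called by limma, while 2 enteroendocrine, 2 myeloid and 1 distal marker had an unadjusted p under 0.05. The mean enterocyte marker level was 13.68 to 14.89 on NWD2 crypt arrays and 12.64 to 13.42 on Ain76A crypt arrays. The mean proliferating crypt marker level was 10.86 to 11.96 and 12.11 to 12.72. Neither list overlapped, each with an exact two-sided permutation p = 0.0286 (adjusted over 24 array comparisons 0.229), the smallest p that 4 arrays against 4 can give. The crypt-villus score was 0.94 to 2.17 in NWD2 and 2.14 to 2.87 in Ain76A (exact two-sided permutation p = 0.0571, adjusted over the same 24 comparisons 0.229). With the score as a covariate 10 members rose and 0 fell, and the covariate fit called 94 genes higher and 14 lower of 7723. Acot1 had a fold of 2.63 in that fit, Vnn1 2.13 and Acadl 1.07. These 10 members were the same that stayed called in every leave-out. They were also the 10 of smallest adjusted p in the main fit, on the same arrays, so the match is no separate check. The part of cell composition in the remaining folds was not tested.

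The members were also sorted by their place in wild-type mice of the genetic arm. Those arrays do not enter the diet group means, but they share the normalization and the estimate of spread with the diet comparison. Of the 1535 genes higher in wild-type crypts, 0.977% rose in NWD2 crypts and 160 fell, with a median fold of -0.34. The 8 members of that class had folds above 0 (median 0.51), and Acaa2, Cpt2 and Pdk4 rose. That class rested in part on wild-type crypt arrays 2 and 4, which had the lowest crypt scores. Without both, only Cpt1a, Etfb, Eci2 and Plin2 were still called higher in wild-type crypts, and limma called 0 of these 4 in NWD2 crypts. With single arrays left out, Pdk4 lost the class in 4 of 8 cases and Acaa2 in 1. Of the 1785 genes higher in wild-type villi, 11.8% rose (median 0.15), and the 7 members in that class had a median fold of 0.96. Of these 7, Creb3l3, Acot12, Acaa1b and Ehhadh rose. Among 3582 genes not called in wild type 7.04% rose, as did 12 of 17 members.

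**Figure D3:**
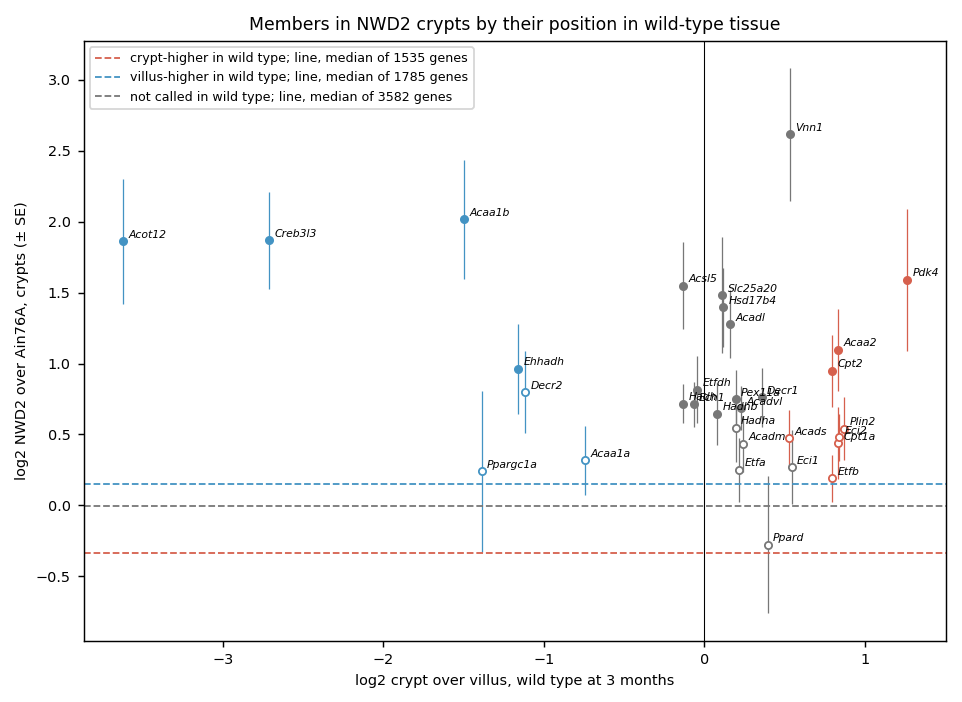
Fold of each member in NWD2 crypts over Ain76A crypts (vertical axis, ± SE) against its crypt over villus fold in wild-type mice (horizontal axis). Colours give the class in wild type, filled symbols passed in NWD2 crypts, and dashed lines are the medians of all genes of each class (-0.34, 0.15 and -0.00), above which 31 of the 32 members lie.

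The levels were then set against both tissues of Ain76A mice. On every NWD2 crypt array, 14 of 34 members measured in all 3 groups lay above every Ain76A array of crypts and of villi, as did 1.08% of 7403 genes. They were the shuttle genes Cpt1a, Cpt2 and Slc25a20, the dehydrogenases Acadvl, Acadl, Acadm and Acads, and Hadha, Acaa2, Etfb, Etfdh, Ech1, Eci2 and Pdk4. The mean of NWD2 crypts lay above both Ain76A means for 25 of 34 members and for 13.8% of genes. Averaged over the 30 members measured on every array, the level was 12.09 to 12.60 on NWD2 crypt arrays, 11.38 to 11.74 on Ain76A crypt arrays and 11.59 to 12.16 on Ain76A villus arrays. These shares have no test and describe these arrays.

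**Figure D4:**
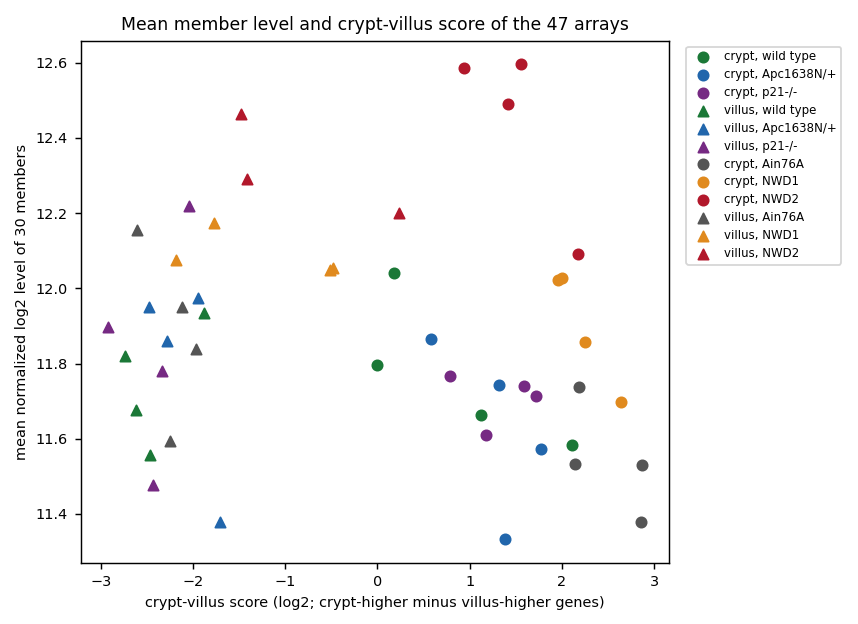
Mean normalized log2 level of 30 members (vertical axis) against the crypt-villus score (horizontal axis) for each of the 47 arrays, circles for crypts and triangles for villi. Of the NWD2 crypt arrays, 3 lie above all other arrays. The lowest, at 12.09, lies above every other crypt array. The scores of the genetic and the diet arm rest on different genes, so horizontal positions compare only within an arm.

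In villi of NWD2 mice, 2 of 34 members rose and 0 fell, beside 0.0802% and 0.321% of the 7480 genes tested. Acadl was at 11.68, 12.14, 12.09 and 11.73 in Ain76A villi and at 13.37, 13.07 and 12.95 in NWD2 villi, without overlap, with a fold of 1.22 ± 0.26 (adjusted p = 0.0234). Hsd17b4 was at 12.39, 12.99, 11.98 and 11.12 and at 12.96, 13.81 and 13.56, and rose by 1.32 ± 0.30 (adjusted p = 0.0332) although Ain76A array 2 lay above NWD2 array 1. The thiolase Acaa2 was at 11.49, 11.57, 11.69 and 10.87 and at 12.96, 12.70 and 12.34, separated completely but just short of a call at 1.26 ± 0.31 (adjusted p = 0.0513). The median fold was 0.37 over the members and 0.00 over all genes, and 27 of 34 members had a fold above 0.

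Acot1 was blank on all 4 Ain76A villus arrays and could not be tested there, while it was at 6.74, 6.77, 5.99 and 6.09 on NWD1 and at 8.57, 9.07 and 6.80 on NWD2 villus arrays. Cpt1a, at 10.99, 10.86, 10.71 and 10.25 in Ain76A villi and 11.74, 11.56 and 11.18 in NWD2 villi, was separated but had a fold of 0.79 ± 0.27 (adjusted p = 0.207). In the 7 leave-outs Acadl was lost in 5 and Hsd17b4 in 4, and 0 members were called without Ain76A array 4, NWD2 array 2 or NWD2 array 3. The deposited scaling also gave 0. Without NWD2 array 1, Vnn1 rose (2.26) beside Hsd17b4. In these villi 0 of 20 enterocyte markers were called by limma and 1 had an unadjusted p under 0.05 (median fold -0.12), and the score was -1.48 to 0.23 in NWD2 villi and -2.60 to -1.97 in Ain76A villi.

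Whether the diet fold differed between crypts and villi was tested for 34 members, of which 1 was called, beside 0.646% of the 7278 genes tested. Creb3l3 was at 14.57, 14.73, 14.33 and 14.51 in Ain76A villi and at 13.32, 14.33 and 14.42 in NWD2 villi, overlapping, against the rise in crypts. The crypt fold exceeded the villus fold by 2.38 ± 0.50 (adjusted p = 0.0175). With the replicate number as a block 4 members were called, Creb3l3, Acot12 (2.62), Acaa1b (2.23) and Hadh (0.70), all with the larger fold in crypts, among 235 of all genes called in that fit. Creb3l3 was lost without crypt Ain76A arrays 1 or 4, crypt NWD2 arrays 2 or 3, or villus NWD2 array 1, and without crypt NWD2 array 1 the count was 6.

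Crypts of NWD1 mice had 0 of 35 members called by limma, and 0 of the 7764 genes tested were called, so the background was 0%. At an unadjusted p under 0.05, 5 members were higher and 0 lower, and 272 of all genes were under it. Most folds pointed up nevertheless, with 31 of 35 above 0 and a median of 0.29 beside -0.05 over all genes. Mean marker levels moved as well. Enterocyte markers were at 13.16 to 13.99 in NWD1 and 12.64 to 13.42 in Ain76A crypts, and proliferating crypt markers at 11.76 to 12.28 and 12.11 to 12.72, with overlap in both, and their part in the folds was not tested. Creb3l3 was at 12.76, 12.51, 13.04 and 12.04 in NWD1 crypts, above all Ain76A arrays, with a fold of 1.07 ± 0.34. Vnn1 was at 10.78, 11.25, 11.23 and 9.84, overlapping Ain76A, with 1.22 ± 0.47, and Acsl5 at 14.88, 14.78, 14.86 and 14.32, above all Ain76A arrays, with 0.78 ± 0.31. On the other side, Angptl4 was at 10.09, 8.87, 10.07 and 9.23 (-0.50 ± 0.40) and Ppara at 10.89, 9.82, 10.65 and 10.39 (-0.20 ± 0.43). Both overlapped Ain76A, as did Ppargc1a at 11.16, 10.76, 10.81 and 10.56 (-0.24 ± 0.57). The adjusted p of all 6 was at or just under 1. Of 34 members, 2 (Acaa2 and Hadha) lay above every Ain76A array of both tissues on every NWD1 crypt array, beside 0.229% of genes.

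In villi of NWD1 mice limma called 0 of 34 members, beside 0.0654% of the 7640 genes tested (0.0524% higher and 0.0131% lower), and 4 members were higher and 1 lower, beside 387 of all genes, at an unadjusted p under 0.05. Hsd17b4 was at 13.15, 13.07, 12.73 and 13.02 (0.87 ± 0.28, adjusted p = 0.567), Cpt1a at 11.57, 11.37, 11.46 and 11.28 (0.72 ± 0.25, adjusted p = 0.683) and Vnn1 at 13.54, 13.82, 12.20 and 12.89 (1.14 ± 0.47, adjusted p = 0.837). Cpt1a lay above every Ain76A villus array, while the other two overlapped. Ehhadh was lower on every NWD1 villus array, at 11.94, 11.51, 12.07 and 11.81 against 12.49, 12.47, 12.75 and 12.57, but did not pass (-0.73 ± 0.32, adjusted p = 0.867). Angptl4 (-0.56 ± 0.43) and Ppard (-0.53 ± 0.48) had the next smallest p-values among members with folds under 0. The difference of the NWD1 fold between crypts and villi was called for 0 of 34 members and 0% of genes, with 2 members higher and 0 lower, and 202 of all genes, at an unadjusted p under 0.05.

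The 2 NWD diets were compared directly, since both share the Ain76A arrays as control. In crypts 0 of 35 members were called between NWD2 and NWD1, beside 0.0128% of the 7798 genes tested, and at an unadjusted p under 0.05 14 members were higher and 0 lower in NWD2, beside 664 of all genes in either direction. Acot1 was at 7.58, 7.82, 8.82 and 8.02 in NWD1 crypts, below every NWD2 array, with a fold of 1.86 ± 0.37 (adjusted p = 0.132). Acaa1b was at 11.20, 10.50, 10.93 and 9.90 in NWD1, overlapping NWD2, with 1.61 ± 0.42 (adjusted p = 0.284), and Hadh at 15.23, 15.29, 15.23 and 14.96, overlapping too, with 0.52 ± 0.14 (adjusted p = 0.287). Without NWD2 array 1 these 3 were called, among 36 of all genes, and without NWD1 array 3 Acot1 was called, among 2. Ppard was the 1 member with a fold under 0 (-0.28 ± 0.48).

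In villi 0 of 36 members were called between NWD2 and NWD1, beside 0% of genes, and 4 were higher and 0 lower, beside 202 of all genes, at an unadjusted p under 0.05. The smallest p belonged to Acot1 (1.75 ± 0.40, adjusted p = 0.249), Acaa2 (0.76 ± 0.31) and Acadl (0.67 ± 0.26). Acot1 was called without villus NWD2 array 3 (2.43, adjusted p = 0.00441), the array with its lowest NWD2 level. Among folds under 0, Acot12 (-0.59 ± 0.47), Angptl4 (-0.32 ± 0.46) and Creb3l3 (-0.28 ± 0.37) came first.

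In the genetic arm, crypts came first. In Apc1638N/+ crypts limma called 0 of 33 members and 0% of the 7143 genes tested, with 1 member higher and 4 lower, and 891 of all genes, at an unadjusted p under 0.05. Acadvl was at 12.39, 12.89, 12.48 and 12.50 in wild-type crypts and at 11.92, 11.45, 12.38 and 11.97 in Apc1638N/+ crypts, lower on every array, with a fold of -0.64 ± 0.15 (adjusted p = 0.0882). Ppard was at 9.70, 11.25, 12.06 and 10.76 and at 9.32, 8.76, 11.81 and 9.07 (-1.20 ± 0.48, adjusted p = 0.284), and Cpt2 at 11.49, 12.13, 11.87 and 11.54 and at 11.00, 10.52, 11.67 and 11.39 (-0.61 ± 0.25, adjusted p = 0.302). Both overlapped. Among folds above 0 the smallest p-values belonged to Decr2 (0.72 ± 0.29), Acot1 (0.77 ± 0.43) and Acaa1a (0.39 ± 0.24). Without Apc1638N/+ array 3, 4 members were called lower, Acadvl by -0.79, Hadha by -0.76, Etfb by -0.56 and Ppard by -1.89, while 382 of all genes were called lower in that fit. Without wild-type array 1, Acadvl alone was called, lower, beside 91 of all genes called lower.

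In Apc1638N/+ villi limma called 0 of 32 members, beside 0.0280% of the 7155 genes tested, with 1 member higher and 0 lower, and 347 of all genes, at an unadjusted p under 0.05. That member was Vnn1, at 10.69, 11.08, 10.20 and 10.50 in wild-type and 12.46, 12.06, 10.87 and 11.35 in Apc1638N/+ villi, overlapping, with 1.07 ± 0.47 (adjusted p = 0.935). The other smallest p-values belonged to Acadl (0.34 ± 0.24), Eci2 (0.23 ± 0.16), Creb3l3 (-0.46 ± 0.34) and Acadvl (-0.16 ± 0.15), with adjusted p of 0.935 or more. Ppard, with the smallest p among folds under 0, was at 9.94, 10.22 and 11.49, with 1 blank, in wild-type villi and at 9.20, 9.85, 10.17 and 8.97 in Apc1638N/+ villi, which overlapped. The difference between crypts and villi was called for 0 of 31 members and 0% of genes, with 1 member higher and 3 lower, and 380 of all genes, at an unadjusted p under 0.05.

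In p21-/- crypts 1 of 33 members was called, beside 4.27% of the 6797 genes tested. The p21-/- crypt arrays stood apart from wild type, without overlap, in measured probe sets (14758 to 17315 against 19034 to 22020). The mean level of Paneth markers, over only 2 of the 10 listed, did not overlap either (16.05 to 16.32 against 14.82 to 15.88). The part of both in the result was not tested. With the deposited scaling, all genes called moved from 179 higher and 111 lower to 102 and 226. Acaa1a was at 9.66, 9.71, 9.24 and 10.24 in wild-type crypts and at 10.87, 9.82, 11.23 and 10.84 in p21-/- crypts, overlapping on p21-/- array 2, with a fold of 0.97 ± 0.24 (adjusted p = 0.0174). It was lost without p21-/- array 3, where the count was 0, and without wild-type array 3, where Decr2 alone was called (1.12). The count was 2 without wild-type array 2, where Acads joined (0.65), or without p21-/- array 4, where Decr2 joined (1.09). In p21-/- villi limma called 0 of 32 members, beside 0.0419% of the 7154 genes tested (0.0280% higher and 0.0140% lower), with 1 member higher and 2 lower, and 786 of all genes, at an unadjusted p under 0.05.

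In those villi Vnn1 had the smallest p among folds above 0. It was at 11.72, 11.77, 13.21 and 11.84 in p21-/- villi, above every wild-type array, with 1.52 ± 0.47 (adjusted p = 0.227). Eci2 (0.31 ± 0.16) and Acadl (0.41 ± 0.24) followed. Below 0 stood Eci1 (-0.78 ± 0.26), Ppargc1a (-1.35 ± 0.57) and Acot12 (-0.49 ± 0.44). The p21-/- fold of Vnn1 was lower in crypts than in villi by 2.44 ± 0.66 on the log2 scale (value -2.44, adjusted p = 0.0488), the 1 member called of 31, beside 1.40% of the 6341 genes tested. This call was lost in 11 of 16 leave-outs and kept without wild-type crypt arrays 1 or 3, p21-/- crypt array 4, wild-type villus array 2 or p21-/- villus array 1.

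Along the crypt-villus axis, members were called in both directions in each condition but NWD2. Folds here are log2 crypt over villus. In wild type 8 of 32 members were higher in crypts and 7 in villi, beside 21.9% and 26.5% (48.4% together) of the 7014 genes tested. In Ain76A at 1 year 5 of 34 were higher in crypts and 8 in villi, beside 29.1% in each direction (58.2% together) of 7439 genes. In Ain76A a block on the replicate number raised the counts to 6 and 11, with 2264 and 2325 of all genes called in the same fit. The labels do not say that the number pairs crypts with villi.

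Villus-higher members included Creb3l3, Acaa1b, Acot12 and Ehhadh. Creb3l3 was higher in villi in 5 of the 6 conditions, by -2.71 ± 0.34 in wild type, -2.70 ± 0.34 in Apc1638N/+, -2.52 ± 0.34 in p21-/-, -3.01 ± 0.34 in Ain76A and -1.71 ± 0.34 in NWD1. It was at 11.06, 12.65, 12.05 and 13.01 in wild-type crypts and at 14.87, 15.04, 15.01 and 14.70 in wild-type villi, without overlap. Acaa1b was higher in villi in the same 5 conditions, between -2.24 in Ain76A and -1.16 in p21-/-. Acot12 had the largest folds, -3.62 ± 0.47 in wild type, -3.86 ± 0.44 in Ain76A and -2.97 ± 0.44 in NWD1, and was blank on too many crypt arrays to be tested in Apc1638N/+ and p21-/-. Ehhadh was higher in villi in 4 conditions (-1.71 in Ain76A), Acsl5, Hadh and Vnn1 in 3 each. Vnn1 was called in p21-/-, Ain76A and NWD1, between -2.41 and -1.91.

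Crypt-higher members included Eci2, Pdk4, Acaa2 and Cpt1a, and a split by organelle was not tested. Eci2 was higher in crypts in all 6 conditions, by 0.63 in p21-/- to 0.84 in wild type. Pdk4 was at 9.96, 10.85, 10.31 and 11.11 in wild-type crypts and at 8.47, 9.64, 8.65 and 10.42 in wild-type villi, overlapping between the tissues, with 1.26 ± 0.50. It was called in 4 conditions, with the largest fold in NWD2 (2.48 ± 0.54). Acaa2, Cpt1a, Etfb, Plin2, Acads and Eci1 were each called in 3 conditions, with folds of 0.53 to 0.91. Acot1 was called in NWD1 (1.67 ± 0.37) and NWD2 (1.77 ± 0.40), the 2 conditions in which it was measured on 3 or more arrays of both tissues.

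**Figure D5:**
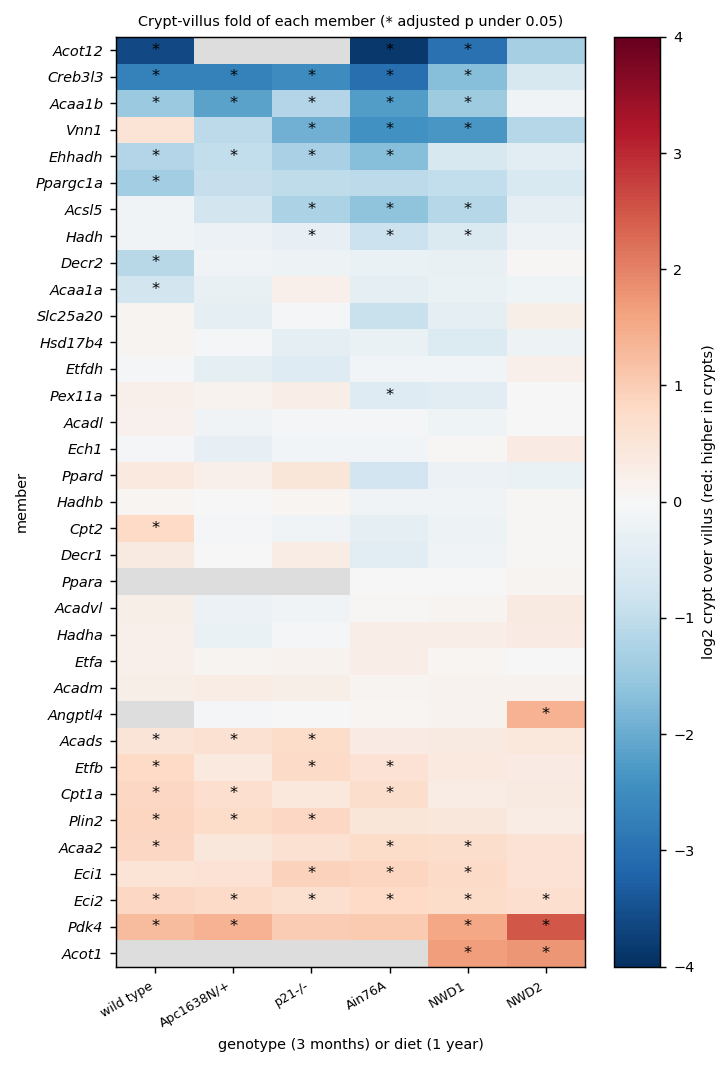
Log2 crypt over villus fold (colour, red higher in crypts and blue higher in villi) of each member tested (rows) in the 6 conditions (columns). Asterisks mark an adjusted p under 0.05 and grey cells were not tested. Stars in blue cells number 7, 3, 6, 8, 6 and 0 from left to right, and in red cells 8, 5, 5, 5, 5 and 4.

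The other conditions gave 5 crypt-higher and 3 villus-higher of 32 in Apc1638N/+ (22.2% and 22.1% of genes, 44.2% together), 5 and 6 of 32 in p21-/- (24.1% and 23.8%, 47.9% together), 5 and 6 of 35 in NWD1 (24.6% and 22.8%, 47.5% together), and 4 and 0 of 35 in NWD2 (9.08% and 6.27%, 15.3% together). In NWD2 the 4 were Acot1, Pdk4, Eci2 and Angptl4 (1.40, adjusted p = 0.0223). Without NWD2 villus array 3 only Pdk4 was called there, and without villus array 2 only Acot1 and Pdk4. In wild type, leaving out crypt arrays 2 and 4 together, a choice made after seeing the data, left 4 crypt-higher and 5 villus-higher members.

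Mice on Ain76A at 1 year and wild-type mice on Ain76A at 3 months share genotype and diet by their labels, and age and study arm cannot be told apart between them. In crypts 4 of 36 members were lower at 1 year and 0 higher, beside 6.10% and 7.61% of the 7636 genes tested. Hadh was at 15.89, 16.11, 15.53 and 15.81 at 3 months and, as given above, between 14.88 and 15.05 at 1 year, with no overlap and a fold of -0.86 ± 0.14 (adjusted p = 0.000125). Vnn1 was at 10.52, 11.81, 10.37 and 11.89 at 3 months (-1.59 ± 0.47, adjusted p = 0.0209), Acaa1b at 10.30, 13.02, 11.01 and 12.36 (-1.45 ± 0.42, adjusted p = 0.0184) and Acadvl (-0.51 ± 0.15, adjusted p = 0.0235) was lower as well. Every 1-year array lay below every 3-month array for Vnn1 and Acadvl, while Acaa1b overlapped. Without wild-type array 2 only Hadh was called, without wild-type array 4 Hadh and Acadvl, without Ain76A array 4 Hadh and Vnn1, and without wild-type array 1 the count was 7. Crypt-villus scores of the 2 ages rest on different genes and cannot be compared. The mean enterocyte marker level was 12.94 to 14.50 at 3 months and 12.64 to 13.42 at 1 year. Vnn1, Acaa1b and Hadh were higher in villi than in crypts of the 1-year mice, and the part of the markers in these folds was not tested.

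In villi 2 of 32 members were higher at 1 year and 0 lower, beside 7.36% and 9.79% of the 7121 genes tested. Vnn1 had a fold of 1.36 ± 0.47 (adjusted p = 0.0388) from the wild-type levels given above to 12.33, 12.99, 10.96 and 11.61 at 1 year, overlapping on 1 array. Pex11a was at 10.48, 10.71, 10.70 and 11.15 at 3 months and at 11.33, 11.28, 11.46 and 11.27 at 1 year, with no overlap and 0.58 ± 0.21 (adjusted p = 0.0495). Each of the 8 leave-outs cost at least 1 of the 2 calls, and both were lost without wild-type arrays 1 or 3 or Ain76A arrays 1 or 2. Pex11a was kept without wild-type array 4, and Vnn1 without wild-type array 2 or Ain76A arrays 3 or 4. Lymphocyte markers, over only 3 of the 10 listed, had a mean level of 13.61 to 14.78 in 3-month villi and 11.76 to 12.66 in 1-year villi. Enterocyte markers had one of 14.17 to 14.68 and 14.98 to 15.21, and neither list overlapped. Their part in these folds was not tested. With the deposited scaling, all genes called in villi moved from 524 higher and 697 lower to 855 and 716.

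The crypt-villus fold differed between the 2 ages for 4 of 32 members, each more villus-weighted at 1 year in the main scaling, beside 12.2% (6.40% higher and 5.76% lower) of the 6879 genes tested. They were Vnn1 (-2.95 ± 0.66, adjusted p = 0.00564), Acsl5 (-1.48), Cpt2 (-1.18) and Hadh (-0.73), whose direction turned with the deposited scaling (0.26). Acsl5 was at 14.07, 15.05, 14.44 and 15.03 in wild-type crypts and 14.56, 15.07, 14.57 and 14.94 in wild-type villi, overlapping, whereas at 1 year the tissues were separated. Cpt2 was higher in wild-type crypts, at 11.49, 12.13, 11.87 and 11.54, than in wild-type villi, at 11.24, 10.95, 10.79 and 10.87. The count was 2, Vnn1 and Hadh, without wild-type crypt array 2 or wild-type villus array 3, and 0 without wild-type crypt arrays 2 and 4 together, the arrays with the lowest crypt scores.

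Further genes of the pathway, outside the set, were counted from lists for the NWD2 crypt comparison. Of 13 other peroxisomal genes tested, 8 rose and 0 fell (median 0.89). They included Crot, a carnitine octanoyltransferase (1.70 ± 0.30, adjusted p = 0.000596), catalase Cat (1.63 ± 0.34, adjusted p = 0.00192), the thioesterase Acot4 (1.46 ± 0.32, adjusted p = 0.00419) and the sterol carrier and thiolase Scp2 (1.39 ± 0.23, adjusted p = 0.00037). Of 16 other genes of mitochondrial oxidation and ketone handling, 2 rose and 0 fell (median -0.12), Acad11 (1.57 ± 0.26, adjusted p = 0.00037) and the carnitine transporter Slc22a5 (0.64 ± 0.21, adjusted p = 0.0477).

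Of 21 other PPAR target and lipid droplet genes, 9 rose and 1 fell (median 0.56). The fatty acid transporter Cd36 rose by 3.34 ± 0.63 (adjusted p = 0.00115), the lipid droplet gene Cidec by 2.27 ± 0.37 (adjusted p = 0.00037), the lipase inhibitor gene G0s2 by 1.85 ± 0.43 (adjusted p = 0.00981), and the desaturase gene Scd2 fell (-2.07 ± 0.52, adjusted p = 0.00814). Cidec was also the 1 fat tissue marker of 8 listed that had a kept probe set, so attached fat could not be gauged from that list. Fabp1 and Fabp2, which rose too, are enterocyte markers as well. These counts stand beside the rise of the enterocyte markers given above. Of 17 partners and coregulators of the PPARs 1 rose and 0 fell, the oxysterol receptor gene Nr1h3 (0.78 ± 0.25, adjusted p = 0.0369). In NWD2 villi the companions held 1 call, Txnip, a thioredoxin inhibitor (-1.40 ± 0.31, adjusted p = 0.0273).

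Probe sets of a gene did not always give the same difference in NWD2 crypts. Several kept probe sets were available for 14 members. The gene values above come from whichever had the highest mean. For Cpt1a the 3 probe sets differed by 0.44, 1.01 and 1.35 between NWD2 and Ain76A means, so the value used is the smallest. Ppargc1a gave 0.24 by the probe set used and 0.62 to 1.39 by 4 others. Hadh gave 0.55, 0.72 and 1.92, and Acaa1a 0.32 and 1.22. One kept probe set of Hadhb differed in the other direction (-0.22), as did a probe set of Cpt2 that the filter on low values left out (-0.26). Vnn1 (2.62 and 2.61) and Slc25a20 (1.48 and 1.53) gave nearly the same by both.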

How the data were processed

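RNA from crypts and villi was hybridised to 47 Affymetrix 3' arrays, which the submitters' processing notes link to GCOS software, version not given in the sources used here. The deposited values were log2 signals, which the authors gave per probe set and array, and why 55.3% of cells were blank is not stated. Of 45101 probe sets, 64 controls were left out. Trimmed means differed between arrays by a factor of 1.46 on the linear scale, above the limit set of 1.2, so arrays were quantile-normalized on the 8350 probe sets with a value on all arrays, and other measured values were placed by monotone interpolation.

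A probe set was kept when it exceeded its array's median of measured values on 3 or more arrays (14937 probe sets, 8224 genes). A gene took the kept probe set of highest mean, and 34945 probe sets had 1 symbol, 932 several and 9160 none. Of the members' 67 probe sets 59 were kept, and 30 members were measured on every array. A gene was tested where each group had at least 3 measured arrays. The fit was limma 3.58.1 (R 4.3.3), 1 model over 12 groups with a variance trend, Benjamini-Hochberg adjustment over all genes tested and a threshold of 0.05, and it was tested on simulated data. All adjusted p-values are limma's unless an exact permutation test is named. The number of arrays limits precision.

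The members, companion lists, markers and rules were chosen with earlier results of these data known. All members could be named. Values per array were given for members called between groups other than crypt and villus, for the smallest p-values where none was called and for 13 preset members, and companions by largest fold.

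The labels do not say whether crypt and villus arrays of the same number came from the same mice. Correlations of deviations between arrays of the same number were 0.13 to 0.29 in Ain76A and 0.29 to 0.49 in NWD2. The highest correlation with another number ran from -0.07 to 0.05 in Ain76A and from -0.42 to 0.40 in NWD2. In the other conditions, and between groups of a tissue, not every correlation passed 0.1. Alternatives covered scaling, filters, probe set choice, blanks at a floor, the variance model, the groups in the fit, the score as a covariate, a replicate block and each array left out. Figures and array tests used Python 3.11.15 with numpy 2.4.6, pandas 2.3.3, scipy 1.17.1 and matplotlib 3.10.9.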

Additional observations from a re-analysis of the deposited data

Results flagged for a closer look

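Of 290 groups of 4 arrays over 29 members, 15 held an array far from the others, where chance flags about 1 in 20 groups. In the NWD2 crypt comparison, NWD2 array 1 stood low for Acaa2, at 12.74 against 13.38 to 13.42, and for Ech1, at 12.76 against 13.13 to 13.14. Ain76A crypt array 4 was low for Hsd17b4, at 11.74 against 11.89 to 11.90, and Ain76A villus array 4 for Cpt2, at 11.25 against 11.52 to 11.54.

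Apc1638N/+ villus array 3 was low for 4 members. Acsl5 was at 13.52 there against 15.04 to 15.35, Decr1 at 11.50 against 12.25 to 12.36, Etfdh at 10.49 against 11.25 to 11.38, and Cpt1a at 9.83 against 10.21 to 10.29.

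In p21-/- mice, villus array 3 was high for Vnn1, at 13.21 against 11.72 to 11.84, and for Pdk4, at 10.97 against 8.58 to 8.95, and villus array 1 was low for Acadvl, at 12.23 against 12.53 to 12.58. Among p21-/- crypts, array 4 was low for Slc25a20, at 9.73 against a highest value of 12.34, and high for Acsl5, at 14.61 against 13.67 to 13.81, and array 1 was low for Acadl, at 11.66 against 12.11 to 12.17. Wild-type crypt array 4 was high for Ppargc1a, at 12.20 against 9.67 to 9.69 on the other measured arrays.

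Between tissues, 6 effects differed by limma's test of the difference itself. They were 1 of 34 members for NWD2, beside 0.646% of all genes, and 1 of 31 for p21-/-, beside 1.40%. For age they were 4 of 32 members, beside 12.2% of all genes, so the members were near the share of all genes. The NWD2 fold of Creb3l3 was higher in crypts, where the gene rose, than in villi, where it did not, by 2.38 (adjusted p = 0.0175). The p21-/- fold of Vnn1 differed by -2.44 (adjusted p = 0.0488), crypts minus villi. Between the 1-year Ain76A mice and the 3-month wild-type mice, where age and study arm cannot be told apart, the crypt-villus fold differed by -2.95 for Vnn1, -1.48 for Acsl5, -1.18 for Cpt2 and -0.73 for Hadh. Hadh turned to 0.26 with the deposited scaling, and limma called 0 of these 4 without wild-type crypt arrays 2 and 4.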

How the results depend on the processing

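Across named members, 2229 values kept direction and side of the threshold, 223 fell short of it, 8 passed it and 8 reversed. The count in NWD2 crypts was 10 with the score as a covariate and 10 to 24 with 1 array left out. In NWD2 villi it was 0 with the deposited scaling, 4 with the mean of all probe sets, 5 with blanks at a low floor and 1 with the replicate block. For the NWD2 difference between tissues it was 3 with the deposited scaling, 2 with a stricter filter, 8 with only the groups compared and 4 with the replicate block, and that of p21-/- was 0 with the stricter filter, a robust variance model, only the groups compared, or without wild-type crypt arrays 2 and 4. Leaving out those 2 arrays, chosen after seeing the data, gave 9 in the wild-type crypt-villus comparison, 1 in crypts at 1 year and 0 for the age difference. With only the groups compared, counts were 5 for crypt-villus in Apc1638N/+, 20 in NWD1, 0 in p21-/- crypts and 2 in crypts at 1 year. In villi at 1 year counts were 5 with the deposited scaling, 1 with no filter and 0 with the mean of all probe sets.

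With each array left out, crypt-villus counts were 10 to 15 in wild type, 6 to 10 in Apc1638N/+, 9 to 13 in p21-/-, 11 to 15 in Ain76A, 9 to 11 in NWD1 and 1 to 5 in NWD2. Crypt counts were 0 to 4 for Apc1638N/+, 0 to 2 for p21-/-, 0 to 3 for NWD2 against NWD1 and 1 to 7 at 1 year. Villus counts were 0 to 2 for NWD2, 0 to 1 for NWD2 against NWD1 and 0 to 2 at 1 year. Differences between tissues gave 0 to 2 for p21-/-, 0 to 6 for NWD2 and 2 to 5 for age, and the other comparisons 0 to 0.

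The 8 reversals were these. The deposited scaling gave Hadh 0.013 for crypt over villus in p21-/- and 0.26 for the age difference. The mean of all probe sets gave -0.059 for Acaa1a in Apc1638N/+ crypts and, for Ppargc1a, 0.033 in NWD1 crypts and 0.080 in p21-/- villi. With each array left out, Ppara in NWD1 crypts ran from -0.35 to 0.0070, positive without NWD1 array 2, and Creb3l3 in villi between NWD2 and NWD1 from -0.48 to 0.072, positive without NWD2 array 1. Angptl4 in that comparison was 0.66 with blanks at a floor. The causes were not tested. The replicate block gave 21 in NWD2 crypts. With the deposited scaling, all genes called higher and lower moved from 1538 and 1859 to 1845 and 1395 (wild-type crypt over villus), 679 and 469 to 930 and 363 (NWD2 crypt over villus), 179 and 111 to 102 and 226 (p21-/- crypts), 581 and 466 to 350 and 483 (crypts at 1 year), 524 and 697 to 855 and 716 (villi at 1 year), 50 and 39 to 50 and 215 (p21-/- difference) and 440 and 396 to 374 and 724 (age difference).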
